A study of Vigna unguiculata subsp. sesquipedalis with 24 samples.

Results

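The unigenes UP12_842, UP12_7213 and UP12_13464 of asparagus bean (Vigna unguiculata subsp. sesquipedalis) are 3 of the 29471 unigenes on a custom cDNA microarray. They were chosen by name, as an alcohol dehydrogenase, a Ca2+-binding protein and a SAUR-like protein that the study listed as drought-responsive unigenes close to markers associated with drought traits. A unigene is a sequence assembled from cDNA fragments, and the names are those of the closest Arabidopsis proteins in the study's annotation: putative alcohol dehydrogenase, Ca2+-binding protein 1 and a member of the SAUR-like auxin-responsive protein family. The arrays carried 8 groups of 3: drought and well-watered leaves of B128, drought and well-watered leaves of B47, drought and well-watered roots of B128, and drought and well-watered roots of B47. Both lines are landraces, B128 described by the submitters as isohydric-like and B47 as anisohydric-like. In the paper's transpiration measurements, however, B47 appeared the most and B128 the least sensitive to drying soil, and B128 used water less conservatively. Irrigation stopped for the drought groups when seedlings were 16 days old, and both treatments were sampled 15 days later. The leaf material was the side leaflets of the first trifoliate leaf, and the 2 plants of a pot were mixed, so an array stands for a pot and not for a plant.

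Alcohol dehydrogenases interconvert alcohols and aldehydes with NAD(P)H. The classical plant enzyme regenerates NAD+ when oxygen is short, as in flooded roots, and relatives such as cinnamyl alcohol dehydrogenase make the building blocks of lignin. Calcium-binding proteins with EF hands sense the rise in cytosolic calcium that follows drought, touch, cold and pathogen signals. SAUR genes (small auxin up RNA) are switched on quickly by auxin, and several of their products in Arabidopsis promote cell expansion.

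All values are normalized fluorescence intensities on a linear scale, and changes are differences of mean log2 intensity. An array's median over all unigenes was 1541 to 1581 in leaves and 1506 to 1537 in roots, and the 24 pairs of replicates correlated at r = 0.960 to 0.994. The 6 drought root arrays are called root in one label and leaves in another. They were taken as root from the source label. As a check, their mean r was at least 0.886 with the well-watered roots of their line and at most 0.758 with its well-watered leaves. Of 18 unigenes for chlorophyll a-b binding proteins and Rubisco, 12 were higher on every leaf array than on every root array and 0 lower on every one. The 2 Rubisco unigenes went against the list in well-watered plants: mean log2 intensity was 7.12 in leaves and 13.8 in roots of B128 and 7.70 in leaves and 14.3 in roots of B47 for UP12_13963, and 6.57 in leaves and 12.9 in roots of B128 and 6.78 in leaves and 13.4 in roots of B47 for UP12_16180. The mean log2 intensity of the list was 9.24 to 11.86 on leaf arrays and 6.72 to 7.99 on root arrays. Neither of the 2 root markers, an iron and a nitrate transporter, separated the organs: their mean log2 intensity was 9.76 to 10.98 on leaf arrays and 7.90 to 14.64 on root arrays. The low root values came from the drought roots, whose labels disagree. Both root markers, like the leaf list, came from the study's tables of drought-responsive unigenes. A change with drought in some group was thus a condition for their listing. For this reason they do not settle the organ of the drought roots. The iron transporter UP12_16535 averaged 4.41 under drought and 13.1 in well-watered roots of B128, and 4.06 under drought and 13.5 in well-watered roots of B47, beside 7.55 to 8.35 in the leaf groups. In these mixed tissues, fewer cells of a type and less RNA per cell cannot be told apart.

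The transcript level of UP12_842 differed most between the organs. In leaves of B128 its intensity was 315, 256 and 246 under drought, against 356, 699 and 463 in well-watered plants. In leaves of B47 it was 250.2, 218 and 392 under drought, against 446, 637 and 595 in well-watered plants. Every leaf array lay below every root array, and the drought and well-watered arrays did not overlap within either line. In roots of B128 it was 4913, 6685 and 4725 under drought, against 38589.5, 21721 and 26877 in well-watered plants. In roots of B47 it was 4945, 6393 and 3769.7 under drought, against 31467, 21339 and 25860.3 in well-watered plants. The lowest well-watered root array was thus far above the highest drought root array in both lines.

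In roots, UP12_842 was 5.26-fold lower under drought in both lines, with a log2 change of -2.39 in B128 and -2.40 in B47 (SE 0.28 each). The study named the unigene for its fall in both roots, so these values are a description and no test is given for them. In leaves the change was -0.85 in B128 (SE 0.28, adjusted p = 0.0232 by limma with Benjamini-Hochberg adjustment over all unigenes) and -0.99 in B47 (SE 0.28, adjusted p = 0.00799). A change is called here at a fold of at least 2 with an adjusted p of at most 0.01. By that rule neither leaf change was called, that in B47 because its fold was 1.991. Without 1 of the well-watered or drought arrays it was called, as a change of -1.15 without B47 leaf well-watered replicate 1 and -1.24 without B47 leaf drought replicate 3; the leaf change of B128 was called, at -1.07, without B128 leaf well-watered replicate 1.

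UP12_7213 showed another pattern, with its lowest levels in drought leaves. In leaves of B128 the intensity was 638, 698 and 627 under drought, against 8617, 3410.4 and 5811 in well-watered plants. In leaves of B47 it was 667, 385 and 682 under drought, against 10777, 7721 and 11636 in well-watered plants. The drought leaves of both lines thus lay in one range, while the well-watered leaves of B128 varied most. In roots of B128 it was 2035, 1842 and 2756 under drought, against 8247, 7096 and 6313 in well-watered plants. In roots of B47 it was 2171, 3495 and 2433 under drought, against 8005, 4097 and 4299.9 in well-watered plants. Drought and well-watered arrays did not overlap in any of these pairs, though in B47 roots the gap was small.

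The leaf change of UP12_7213 was -3.09 in B128, an 8.49-fold lower level, and -4.14 in B47, a 17.7-fold lower level (SE 0.31 each). These leaf responses are what the study named it for, and no test is given. The root responses did not serve that choice. They were -1.72 in B128 (SE 0.31, adjusted p = 0.000179, 3.30-fold lower), which was called, and -0.98 in B47 (SE 0.31, adjusted p = 0.0145), which was not, although it was called at -1.18 without B47 root drought replicate 2. The difference between the root responses of the lines (B128 minus B47) was -0.74 (95% interval -1.67 to 0.19, adjusted p = 0.724), so a call in one line's roots and none in the other's is not a shown difference.

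UP12_13464 varied most in the leaves of B47. In leaves of B128 the intensity was 243, 179 and 187 under drought, against 658, 499 and 1022 in well-watered plants. In leaves of B47 it was 117, 110.3 and 198 under drought, against 1462, 1275 and 2241 in well-watered plants. B47 leaves thus gave the highest and the lowest levels of all groups. In roots of B128 it was 273, 372 and 416 under drought, against 883, 694 and 478.5 in well-watered plants. In roots of B47 it was 234, 347 and 227 under drought, against 713, 582 and 662 in well-watered plants. Drought arrays lay below well-watered ones in all 4 pairs.

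In B47 leaves UP12_13464 was 11.8-fold lower under drought, a log2 change of -3.56 (SE 0.30). The study listed it for its response in these leaves, so no test is given. In B128 leaves it was 3.46-fold lower, a change of -1.79 (SE 0.30, adjusted p = 0.000102, called). In B128 roots the change was -0.93 (SE 0.30, adjusted p = 0.0135, not called, but called at -1.17 without B128 root well-watered replicate 3), and in B47 roots -1.30 (SE 0.30, adjusted p = 0.00127, called). The study listed the unigene for B47 leaves alone, so the calls in B128 leaves and B47 roots go beyond that listing. Their p-values are not independent of it, and why the calls differ was not tested.

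**Figure D1:**
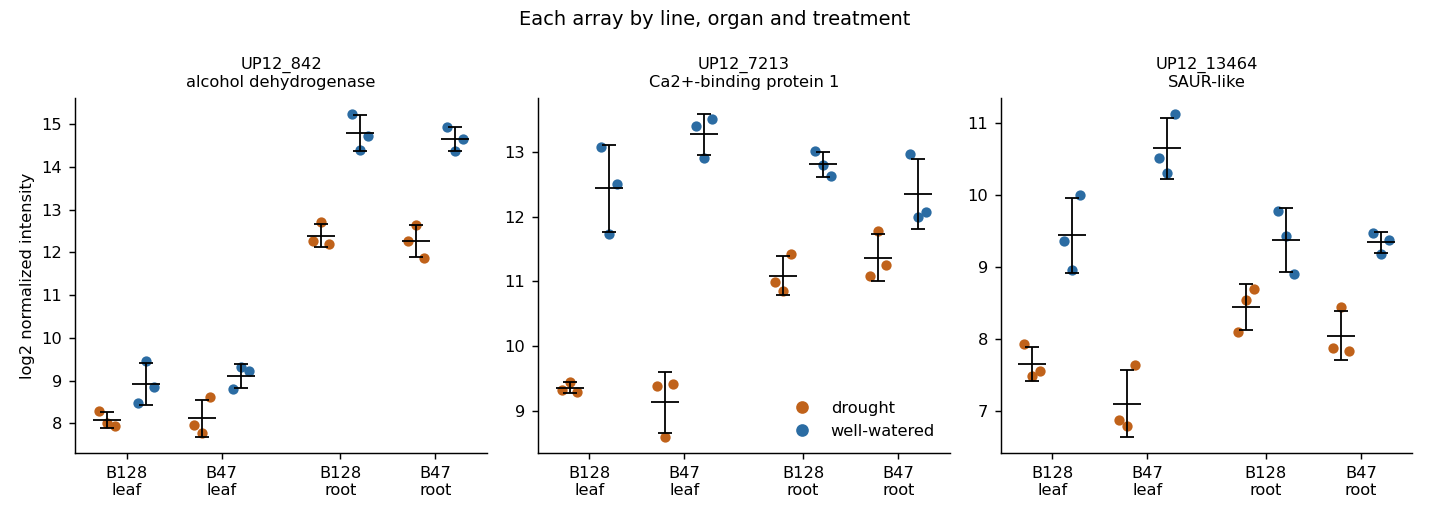
Log2 normalized intensity (vertical axis, a separate scale in each panel) of UP12_842, UP12_7213 and UP12_13464 on each of the 24 arrays, by line and organ, with drought (orange) left of well-watered (blue). Points are arrays and bars the mean and SD of 3 arrays; for UP12_842 every root array lies above every leaf array, and within each line and organ the drought arrays of all 3 unigenes lie below the well-watered ones.

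Across the whole array, 14.7% of unigenes were called in B128 leaves, 16.0% in B47 leaves, 21.7% in B128 roots and 22.5% in B47 roots. Of the 3 unigenes, 2 were called in each of these comparisons, all as decreases, but these include the comparisons that served to name them, so nothing is read from the count. The share of all unigenes with a lower change than UP12_842 was 12.2% in B128 leaves, 9.98% in B47 leaves and 3.86% in B128 roots, and close to the last in B47 roots. For UP12_7213 it was 1.33% in B128 leaves, 0.55% in B47 leaves, 6.63% in B128 roots and 13.5% in B47 roots. For UP12_13464 it was 4.49% in B128 leaves, 0.889% in B47 leaves, 13.8% in B128 roots and 10.0% in B47 roots. The most extreme of these ranks belong to comparisons that served to name the unigenes. The treatments had no overlap for any of the 3 unigenes in any of the 4 comparisons, as for 48.4% of all unigenes in B128 leaves, 58.5% in B47 leaves, 52.7% in B128 roots and 58.7% in B47 roots.

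**Figure D2:**
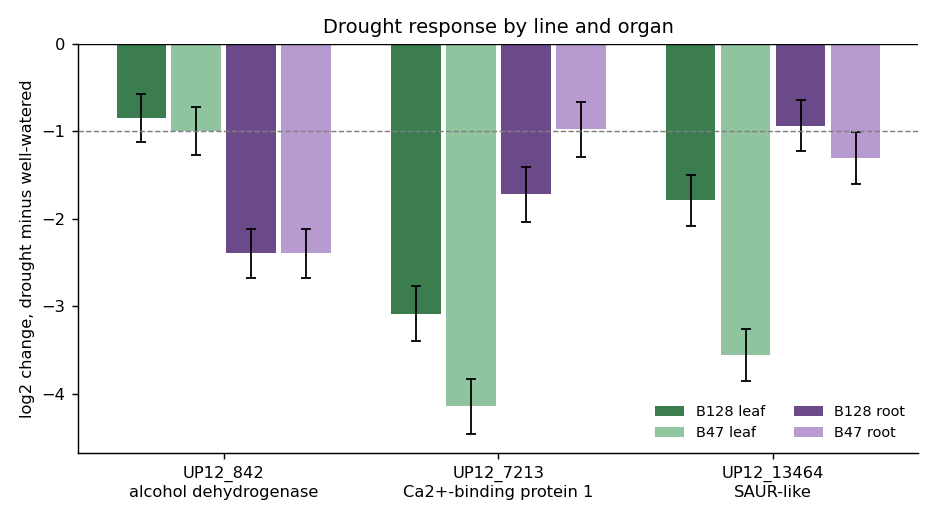
Log2 change, drought minus well-watered (vertical axis), of the 3 unigenes in B128 and B47 leaves and roots. Bars are limma estimates, error bars their SE and the dashed line a fold change of 2; all 12 changes are below 0, from -4.14 for UP12_7213 in B47 leaves to -0.85 for UP12_842 in B128 leaves.

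The design asks whether the lines responded to drought in unlike ways. The study reported a higher relative water content in drought leaves of B47 than of B128 at sampling, and similar contents in the well-watered plants. In comparisons of the lines that include drought plants, line and severity of dehydration thus cannot be told apart. Of the 3 unigenes, 0 had a called difference of response between the lines in leaves, where 2.42% of all unigenes had one, and 0 in roots, where 0.319% had. By limma's unadjusted p, 2 of the 3 were below 0.05 in leaves and 0 in roots. UP12_13464 came closest. Its leaf response in B128 minus that in B47 was 1.77 (SE 0.42, 95% interval 0.89 to 2.65, adjusted p = 0.0147), that is, a less negative change in B128. It was called without B128 leaf well-watered replicate 3 (2.05, adjusted p = 0.00483) and without B47 leaf drought replicate 3 (2.04, adjusted p = 0.00626). The study listed the unigene for a response in B47 leaves alone, so this contrast is not independent of the choice. For UP12_7213 the difference in leaves was 1.06 (SE 0.44, 95% interval 0.13 to 1.99, adjusted p = 0.175). For UP12_842 it was 0.15 (95% interval -0.68 to 0.97, adjusted p = 0.882) in leaves and 0.00 (95% interval -0.82 to 0.83) in roots. A p that misses the threshold does not show like responses.

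Of 12 line differences (3 unigenes, each organ and treatment), 1 was called. In well-watered leaves UP12_13464 was lower in B128, at 726 ± 268, than in B47, at 1659 ± 513 (SD, n = 3 each), a log2 difference of -1.21 (SE 0.30, adjusted p = 0.00694). The arrays of the lines did not overlap there. It was the 1 of the 3 unigenes called in that comparison, against 6.46% of all unigenes. Well-watered B47 leaves are one side of the response that the study listed UP12_13464 for. The p-value of this difference is thus not independent of the choice, and the same holds for UP12_7213, named for the leaves of both lines. The call was lost without any 1 of 4 arrays, with an adjusted p of 0.0283 without B128 leaf well-watered replicate 1, 0.0369 without B128 leaf well-watered replicate 2, 0.0152 without B47 leaf well-watered replicate 1 and 0.0511 without B47 leaf well-watered replicate 3. In the same leaves UP12_7213 was at 5946 ± 2606 in B128 and 10045 ± 2058 in B47 (SD, n = 3 each), a difference of -0.83 (SE 0.31, adjusted p = 0.0704). Between B128 and B47 in drought leaves, drought roots and well-watered roots 0 of the 3 unigenes were called, and 3.18%, 2.09% and 2.30% of all unigenes. In these 3 comparisons 0 had an unadjusted limma p below 0.05. The interval of the difference under drought was -0.06 to 1.18 in leaves and -0.22 to 1.02 in roots for UP12_13464, and -0.62 to 0.55 in leaves and -0.46 to 0.71 in roots for UP12_842.

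Leaves and roots were the larger contrast for UP12_842. Its log2 level in leaves minus that in roots was -4.31 under drought and -5.86 in well-watered plants of B128, and -4.15 under drought and -5.55 in well-watered plants of B47 (SE 0.28 each, highest adjusted p = 1.53e-10 by limma). This made it 58.0-fold lower in well-watered leaves than in well-watered roots of B128, and 46.8-fold in B47. UP12_7213 was also lower in leaves than in roots under drought, with differences of -1.74 in B128 (SE 0.31, adjusted p = 8.87e-05) and -2.24 in B47 (adjusted p = 4.33e-06). In well-watered plants its difference was -0.37 in B128 (adjusted p = 0.313) and 0.93 in B47 (adjusted p = 0.0154, and called at 1.24 without B47 root well-watered replicate 1). UP12_13464 was higher in leaves than in roots of well-watered B47, by 1.31 (SE 0.30, adjusted p = 0.000758). Its difference under drought was -0.79 in B128 (adjusted p = 0.0263) and -0.95 in B47 (adjusted p = 0.00927 at a fold of 1.93, and called at -1.22 without B47 leaf drought replicate 3), and in well-watered B128 it was 0.06 (adjusted p = 0.861). Thus 2 of the 3 unigenes were called in drought B128, 1 in well-watered B128, 2 in drought B47 and 2 in well-watered B47, against 34.6%, 38.3%, 34.7% and 36.0% of all unigenes. The study named UP12_842 for its response in roots, UP12_7213 in leaves and UP12_13464 in B47 leaves. Those arrays stand on one side of these differences, except for UP12_13464 in B128, where it was listed for neither organ. The p-values of the other differences are thus not independent of the choice.

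Whether drought acted differently in the organs was tested as the leaf response minus the root response. In B47 it was -3.17 for UP12_7213 (SE 0.44, adjusted p = 2.94e-05) and -2.26 for UP12_13464 (SE 0.42, adjusted p = 0.000455), a deeper fall in leaves. For UP12_842 the sign was the opposite, 1.40 (SE 0.39, adjusted p = 0.0106), which was not called but was called without any 1 of 7 arrays: B128 leaf well-watered replicates 1 and 2, B128 root well-watered replicates 1 and 2, B128 root drought replicate 2, B47 leaf drought replicate 2 or B47 root drought replicate 2. In B128 it was 1.55 for UP12_842 (SE 0.39, adjusted p = 0.00556), -1.37 for UP12_7213 (SE 0.44, adjusted p = 0.0247, and called at -1.72 without B128 leaf well-watered replicate 2) and -0.86 for UP12_13464 (SE 0.42, adjusted p = 0.129). Called were 1 of the 3 in B128, where 16.4% of all unigenes were, and 2 of the 3 in B47, where 16.2% were. One arm of each of these contrasts, except that of UP12_13464 in B128, served to name the unigene. This bears on how the p-values are read. The call for UP12_842 in B128 was lost without any 1 of 7 arrays of that line, at values of 1.32 to 1.59: leaf well-watered replicates 1 and 3, leaf drought replicates 1 and 2, root well-watered replicate 1 and root drought replicates 1 and 3.

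The order of the 8 groups differed between the unigenes. For UP12_842 it ran from well-watered roots of B128 and B47 through drought roots of B128 and B47 to well-watered leaves and then drought leaves. Between neighbours in that order the arrays did not overlap only at the steps from well-watered to drought roots, a gap of 2.27 in mean log2 intensity, and from drought roots to leaves, a gap of 3.15. For UP12_7213 the 4 well-watered groups came first with overlapping arrays, then the drought roots after a gap of 0.98, and then the drought leaves after a gap of 1.74. For UP12_13464 well-watered B47 leaves stood alone on top, 1.21 above the next group, then the other 3 well-watered groups, with means of 9.34 to 9.44, and after a gap of 0.90 the drought groups, all neighbours overlapping.

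The factors' shares in each unigene's spread follow this order. Of the squared deviations of log2 intensity over the 24 arrays, organ took 87.1% for UP12_842 and drought 9.70%. Drought took 69.4% for UP12_7213 and 70.7% for UP12_13464, and organ 8.24% and 0.166%. The organ-by-drought term took 14.5% for UP12_7213 and 11.9% for UP12_13464, and line by drought was largest in UP12_13464, at 5.61%. Line alone took at most 0.128% in any of the 3. The medians over all unigenes were 36.8% for organ, 11.7% for drought and 1.18% for line.

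**Figure D3:**
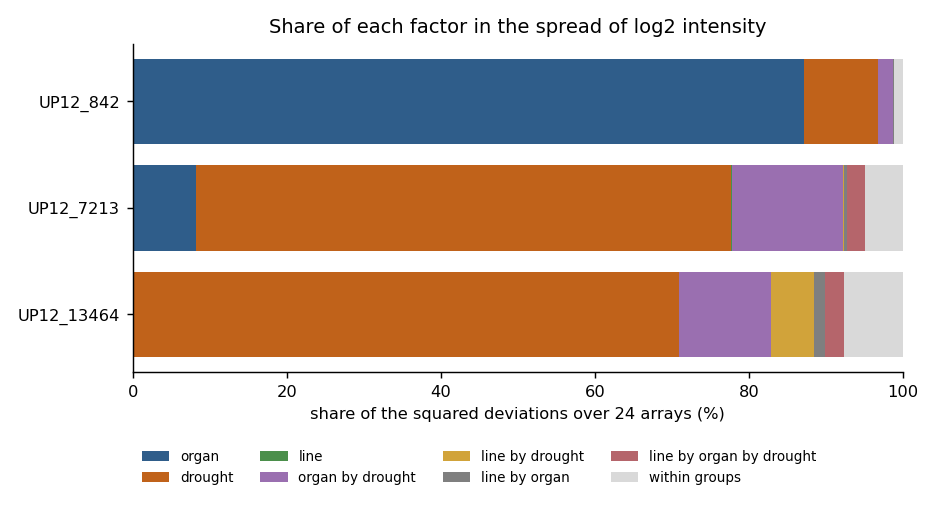
Share in percent (horizontal axis) of each factor and of the spread within groups in the squared deviations of log2 intensity over 24 arrays, for the 3 unigenes. Organ fills 87.1% of the bar of UP12_842, and drought 69.4% and 70.7% of those of UP12_7213 and UP12_13464.

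Among the unigenes whose profile over the 24 arrays was most like that of UP12_842 was UP12_2423 (r = 0.995), which has the same closest Arabidopsis protein. The next were UP12_14271, a peroxidase 72 (r = 0.994), UP12_9944, which the annotation used here does not list (r = 0.992), and UP12_27569, a polyketide cyclase and lipid transport protein (r = 0.991). Such likeness was common: 1635 unigenes, 5.55% of all, had an r above 0.9 with UP12_842. For UP12_7213 the 4 were UP12_17121, a UDP-glucosyl transferase (r = 0.957), UP12_14887, of unknown function (r = 0.950), UP12_6773, a chaperone of the hsc70 kind (r = 0.950), and UP12_15227, a C2H2-like zinc finger protein (r = 0.949), and 56 unigenes had an r above 0.9. For UP12_13464 they were UP12_1737, not in the annotation used here (r = 0.930), UP12_1451, the ethylene-responsive transcription factor 1A (r = 0.925), UP12_15228 (r = 0.922) and UP12_7213 itself (r = 0.917), with 12 unigenes above 0.9. Between UP12_842 and the other two, r was 0.477 with UP12_7213 and 0.269 with UP12_13464. These correlations describe arrays that share their groups and their normalization, and no test is attached to them.

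**Figure D4:**
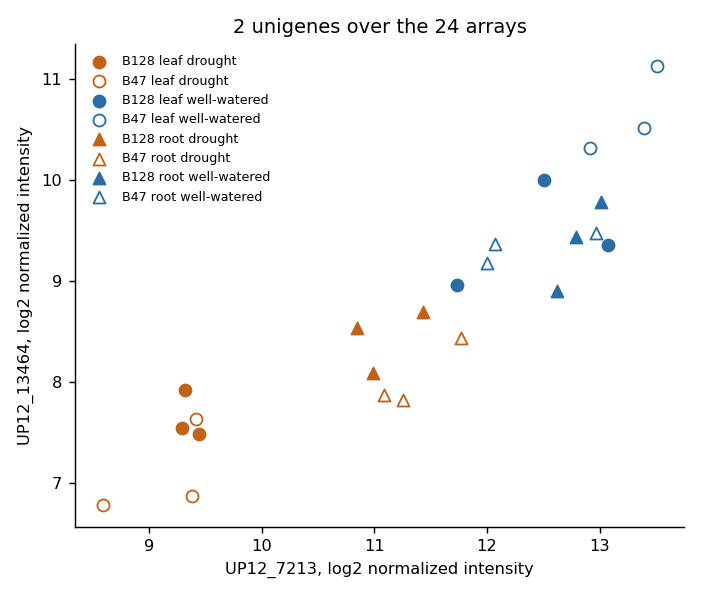
Log2 normalized intensity of UP12_7213 (horizontal axis) against that of UP12_13464 (vertical axis) on each of the 24 arrays, with circles for leaves, triangles for roots, filled for B128 and open for B47, orange for drought and blue for well-watered. The arrays run along one band, with r = 0.917, from drought leaves at the lower left to well-watered B47 leaves at the upper right.

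Other unigenes of the same families came from the study's tables of drought-responsive unigenes. They were selected on these arrays, so that calls among them are frequent by construction. The counts and changes below are a description, with no test given. Over all unigenes the share called was 14.7% in B128 leaves, 16.0% in B47 leaves, 21.7% in B128 roots and 22.5% in B47 roots. Among the 13 other alcohol dehydrogenases, which include cinnamyl alcohol dehydrogenases, 5 rose and 6 fell in B128 leaves, 6 rose and 5 fell in B47 leaves, 6 rose and 3 fell in B128 roots, and 6 rose and 4 fell in B47 roots. Their median change ran from -0.75 to -0.09, beside medians of 0.05 to 0.11 over all unigenes. In the leaf response of B128 minus that of B47, 1 of the 13 was called higher and 4 lower, beside 2.42% of all unigenes. UP12_828, matched to an alcohol dehydrogenase, had the largest mean rise in each organ, 3.01 in B128 leaves, 6.41 in B47 leaves, 6.05 in B128 roots and 6.09 in B47 roots (SE 0.42 each). Its leaf response in B128 minus that in B47 was -3.40 (SE 0.59), which was called. The drought leaves averaged 21035 ± 2205 in B128 and 21827 ± 2356 in B47 (SD, n = 3 each). The well-watered leaves averaged 2746 ± 1027 in B128 and 320 ± 273 in B47, so the lines stood apart there and not under drought. UP12_13850, a putative alcohol dehydrogenase, fell, with changes of -2.34 in B128 leaves, -2.64 in B47 leaves, -3.66 in B128 roots and -5.33 in B47 roots (SE 0.28 each). UP12_3529, a cinnamyl alcohol dehydrogenase of the lignin pathway, fell in leaves, with changes of -3.24 in B128 and -1.89 in B47 (SE 0.25 each). It also fell in B47 roots, with a change of -1.79, while its -0.77 in B128 roots was not called. The root response in B128 minus that in B47, 1.02 (SE 0.36), was not called.

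Of these relatives, UP12_2423 and UP12_24611 share the closest Arabidopsis protein of UP12_842. UP12_2423 followed it: in roots it averaged 2480 ± 650 under drought and 18742 ± 5659 in well-watered plants of B128, and 2356 ± 644 under drought and 15064 ± 2859 in well-watered plants of B47 (SD, n = 3 each). Its change was -2.91 in B128 roots and -2.70 in B47 roots (SE 0.32 each), and in leaves -0.54 in B128 and -0.75 in B47, neither of them called. UP12_24611 ran the other way. In roots it averaged 490.1 ± 24.0 under drought and 63.5 ± 20.1 in well-watered plants of B128, and 908 ± 240.4 under drought and 45.6 ± 12.5 in well-watered plants of B47 (SD, n = 3 each), a rise of 2.99 in B128 and 4.32 in B47 (SE 0.40 each). In leaves its change was 0.02 in B128, which was not called, and 1.72 in B47. Its leaf response in B128 minus that in B47, -1.71 (SE 0.57), was not called. Over the 24 arrays its r with UP12_842 was -0.71. Whether the probes of UP12_842 and UP12_2423 also bind each other's transcripts was not tested.

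**Figure D5:**
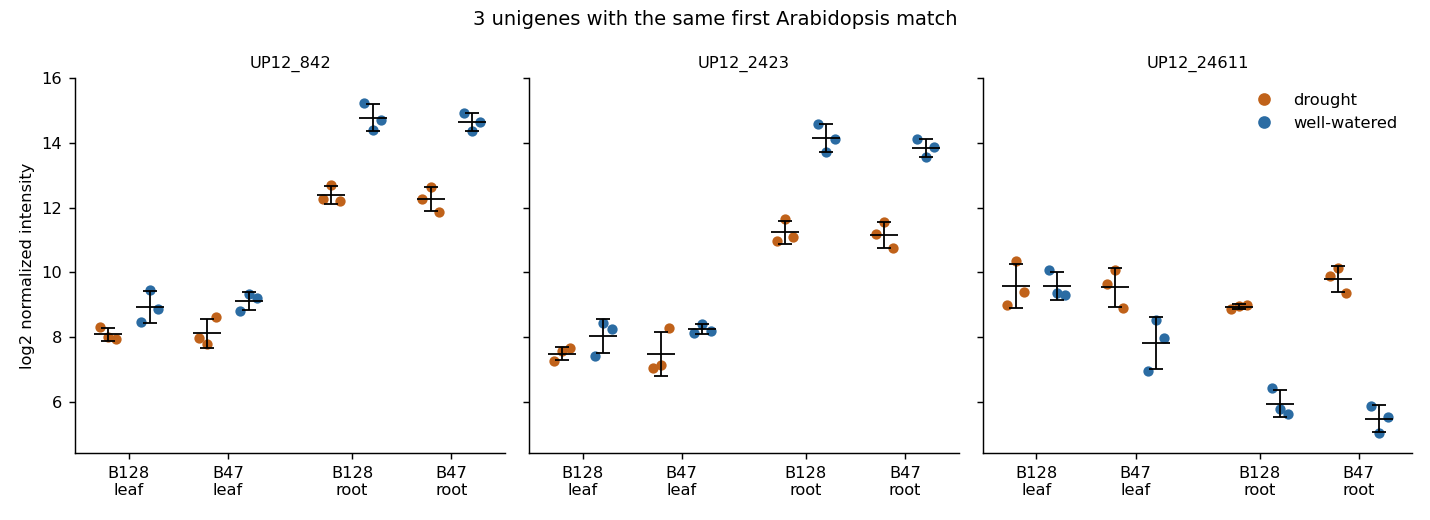
Log2 normalized intensity (vertical axis, one scale) of UP12_842, UP12_2423 and UP12_24611, which share their closest Arabidopsis protein, on each of the 24 arrays by line and organ, with drought (orange) left of well-watered (blue). Points are arrays and bars the mean and SD of 3 arrays; in roots the 2 unigenes on the left are lower under drought and UP12_24611 is higher.

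Of 9 other calcium-binding unigenes, 4 rose and 0 fell in B128 leaves, while 1 rose and 8 fell in B47 leaves. In roots 0 rose and 5 fell in B128, and 0 rose and 3 fell in B47. The median change was -0.15 in B128 leaves, -2.10 in B47 leaves, -1.37 in B128 roots and -0.73 in B47 roots. Of the 9, 4 had a called difference of leaf response between the lines, all higher in B128, beside 2.42% of all unigenes. In well-watered leaves 5 of the 9 were called lower in B128 than in B47 and 0 higher, with a median difference of -1.04. In drought leaves 3 were called higher in B128 and 0 lower, with a median difference of 0.73. Of all unigenes, 6.46% were called in well-watered and 3.18% in drought leaves. Of the 13 other alcohol dehydrogenases, 4 were called higher in B128 and 1 lower in well-watered leaves. In drought leaves 0 of those were called higher and 2 lower. Of 11 other SAUR-like unigenes, 1 was called higher in B128 in well-watered leaves and 1 lower in drought leaves. UP12_2558, a putative calmodulin, changed by 2.85 in B128 leaves and by -6.58 in B47 leaves (SE 0.44 each), a difference of 9.43 (SE 0.63). In roots it fell in both lines, with changes of -3.27 in B128 and -3.56 in B47 and a difference of 0.30 (SE 0.63) that was not called. UP12_14167, matched to the calmodulin-like protein CML39, had a change of -0.22 in B128 leaves, which was not called, and fell by 4.84 in B47 leaves (SE 0.42 each), a difference of 4.62 (SE 0.60). In roots its change was -3.30 in B128 and -1.24 in B47, the second of them not called, with a difference that was not called either. UP12_596, calmodulin-like protein 7, rose in leaves of both lines, by 1.5 in B128 and 1.43 in B47 (SE 0.15 each), and had uncalled changes of -0.54 in B128 roots and -0.38 in B47 roots. UP12_3124, calmodulin-like protein 1, had a 4.00-fold lower level in B47 leaves, which was called, and one lower by 1.984-fold in B128 leaves, which missed the fold threshold, and the difference between these, 1.01 (SE 0.30), was not called. Its change was 0.12 in B128 roots, which became -0.28 with the yeast controls set equal, and 0.74 in B47 roots (SE 0.21 each), neither of them called.

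Of 11 other SAUR-like unigenes, 0 rose and 9 fell in B128 leaves, and 0 rose and 9 fell in B47 leaves. In roots 1 rose and 6 fell in B128, and 1 rose and 7 fell in B47. Of all unigenes, 8.35% were called lower in B128 leaves, 8.18% in B47 leaves, 11.2% in B128 roots and 11.6% in B47 roots. The 11 were listed as drought-responsive on these arrays, so the counts are a description. The median change was -1.91 in B128 leaves, -2.67 in B47 leaves, -2.27 in B128 roots and -1.70 in B47 roots. UP12_10988 had the largest mean fall in each organ, with an SE of 1.00 for each change. Its changes were -2.12 in B128 leaves, which was not called, -7.51 in B47 leaves, -5.96 in B128 roots and -5.51 in B47 roots. The leaf response in B128 minus that in B47, 5.39 (SE 1.42), was not called. UP12_21385 fell in leaves, with changes of -1.77 in B128 and -2.78 in B47, and rose in roots, by 2.64 in B128 and 1.9 in B47 (SE 0.36 each). UP12_8140 fell in B128 leaves, with a change of -1.35 (SE 0.23), and had an uncalled one of -0.12 in B47 leaves, which became 0.20 with the yeast controls set equal. Its leaf response in B128 minus that in B47, -1.23 (SE 0.32), was not called. Its root changes, -0.11 in B128 and -0.45 in B47, were not called. For line by drought in leaves, 1 of the 11 was called, as a lower value in B128, beside 2.42% of all unigenes.

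The study also listed drought-responsive unigenes by the associated marker they lay near. These too were selected on these arrays, so that calls among them are frequent by construction. Of all unigenes, 14.7% were called in B128 leaves, 16.0% in B47 leaves, 21.7% in B128 roots and 22.5% in B47 roots. Of the 5 others at the marker of UP12_842, which include UP12_2423, 1 rose and 3 fell in B128 roots and 1 rose and 4 fell in B47 roots. UP12_26112, a gamma-tocopherol methyltransferase of vitamin E synthesis, fell in all 4 comparisons, with changes of -4.66 in B128 leaves, -3.78 in B47 leaves, -2.52 in B128 roots and -2.29 in B47 roots (SE 0.24 each). UP12_18088, a hypothetical protein, fell in roots, with changes of -6.01 in B128 and -5.90 in B47, while UP12_14103, without annotation, rose there by 2.53 in B128 and 1.90 in B47. Their leaf changes were not called, at 1.16 in B128 and 0.37 in B47 for UP12_18088 and 0.35 in B128 and -0.53 in B47 for UP12_14103. The 1 neighbour of UP12_7213, UP12_4270, rose in leaves, by 1.87 in B128 and 2.87 in B47, where UP12_7213 fell. In roots its change was -1.38 in B128, which was called, and -1.27 in B47, which was not, the same direction as that of UP12_7213. The root response of UP12_4270 in B128 minus that in B47, -0.11 (SE 0.55), was not called. Of 11 neighbours of UP12_13464, 2 rose and 5 fell in B128 leaves and 2 rose and 3 fell in B47 leaves. UP12_745, a putative receptor-like protein kinase, fell in leaves, with changes of -4.52 in B128 and -1.78 in B47, and in roots, with -4.11 in B128 and -2.57 in B47 (SE 0.47 each). UP12_8320, without annotation, rose in leaves by 1.4 in B128 and 2.77 in B47, and had uncalled root changes of 0.28 in B128, which became -0.12 with the yeast controls set equal, and 0.51 in B47. UP12_17883, matched to a GDSL esterase/lipase, fell in roots, with changes of -4.60 in B128 and -5.07 in B47. It also fell in B128 leaves, with a change of -2.32, while its -1.15 in B47 leaves was not called. The leaf response in B128 minus that in B47, -1.16 (SE 0.80), was not called. UP12_102, a heat shock protein, rose by 3.08 in B128 roots and 4.08 in B47 roots (SE 0.33 each), and had uncalled leaf changes of 1.08 in B128 and -0.23 in B47, the second of which became 0.088 with the yeast controls set equal.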

How the data were processed

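The authors hybridized Cy3-labelled cDNA to single-colour NimbleGen arrays with 4 probes of 60 bases a unigene, normalized probes by quantiles and summarised them with RMA (robust multichip average). The values they deposited are intensities on a linear scale, from 4.52 to 60814.1, one column an array. Scanner data and detection calls were not used here, so precision is set by the number of arrays, 3 a group. Replicates are pots; p-values measure the spread between them. Log2 intensities, with no offset, of all 29471 unigenes were fitted in limma 3.58.1 (R 4.3.3) with 1 mean a group over 24 arrays (16 residual and 2.88 prior degrees of freedom). P-values were adjusted over all unigenes within each of 16 comparisons, and a difference was called at a fold of at least 2 and an adjusted p of at most 0.01. The fit was tested on simulated data. The yeast controls (8 entries) were left out. Lists were built from the annotation in the study's tables of drought-responsive unigenes. Fold changes were not read from these tables, but their unigenes had been selected by fold and FDR on these same arrays. From each list the text names the unigenes that share a match with one of the 3, and the largest mean rise and fall in each organ. The 4 unigenes most alike were named by Pearson r. The unigenes and lists were chosen with earlier results of these data known. Figures were drawn with matplotlib 3.10.9 in Python 3.11.15. Alternatives were other sets of arrays in the fit, a replicate block, a shared-pot block, an intensity trend, array weights, other scalings, an offset of 50, leaving out the dimmest 25% of unigenes, other thresholds and leaving out each array in turn.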

Additional observations from a re-analysis of the deposited data

Results flagged for a closer look

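The leaf response to drought minus the root response was called for 3 results. In B128 it was 1.55 for UP12_842 (SE 0.39, limma, adjusted p = 0.00556). In B47 it was -3.17 for UP12_7213 (SE 0.44, adjusted p = 2.94e-05) and -2.26 for UP12_13464 (SE 0.42, adjusted p = 0.000455). The study named UP12_842 for its root response and the other two for their response in these leaves, so one side of each difference is not independent of the choice and the p-values are not clean tests. The call for UP12_842 was lost without any 1 of 7 arrays of B128 and in the fits on fewer arrays (adjusted p = 0.0152). The estimated changes were below 0 in both organs in each case, but the change of UP12_842 in B128 leaves and that of UP12_7213 in B47 roots were not called. With 3 arrays a group, no array was tested for standing apart from its group.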

How the results depend on the processing

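Of the 48 comparisons of the 3 unigenes, 19 were called, and none of these reversed under 13 other settings or without any 1 of 24 arrays. Over the settings 559 of 594 values kept their direction and call, 14 lost the call, 16 gained it and 5 reversed; without single arrays these were 1104, 11, 17 and 20 of 1152. Tested against a fold of 2 rather than against no change, the number of the 3 unigenes called became 1 in B128 leaf, B128 root and B47 root drought responses, in well-watered B47 and drought B128 leaf minus root, and in the organ-by-drought term of B47, and 0 in well-watered B128 minus B47 leaves and in the organ-by-drought term of B128. The well-watered leaf difference between the lines also lost its call (0) with only the 12 leaf arrays, only the arrays compared, array weights or equal yeast controls, and ranged from 0 to 1 without single arrays. The line-by-drought term in leaves gained 1 with array weights or an adjusted p of 0.05, and ranged from 0 to 1. The organ-by-drought term of B128 fell to 0 with the 12 arrays of the line or the arrays compared, reached 2 at an adjusted p of 0.05, and ranged from 0 to 2. The organ-by-drought term of UP12_842 in B47, not called, was called under 6 settings. The causes were not tested, except that the fits on fewer arrays hold fewer degrees of freedom.

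Reversed values, all of uncalled results, were small. With array weights, whose estimation stopped before convergence, UP12_842 had a line-by-drought term of -0.31 in roots and B128 minus B47 differences of 0.028 in drought leaves and -0.014 in drought roots, and UP12_8140 had 0.054 in B47 leaves and 0.017 in B128 roots. With yeast controls equal, which moved the median change of all unigenes by up to 0.695, UP12_842 had line-by-drought terms of -0.13 in leaves and -0.087 in roots, UP12_8140 had 0.20 and UP12_102 0.088 in B47 leaves, and UP12_3124 had -0.28 and UP12_8320 -0.12 in B128 roots. Without single arrays, UP12_842 ranged from -0.079 to 0.41 (leaf) and -0.19 to 0.23 (root) in the line-by-drought term, and from -0.21 to 0.21, -0.065 to 0.32, -0.45 to 0.042 and -0.10 to 0.31 in B128 minus B47 of drought leaves, drought roots, well-watered leaves and well-watered roots. UP12_7213 ranged from -0.046 to 0.37 in drought leaves between the lines, and UP12_13464 from -0.17 to 0.27 in well-watered roots between the lines and from -0.21 to 0.30 in well-watered B128 leaf minus root. Under drought, UP12_14167 ranged from -0.79 to 0.23 and UP12_24611 from -0.37 to 0.30 in B128 leaves, UP12_3124 from -0.051 to 0.34 and UP12_8140 from -0.26 to 0.078 in B128 roots, and UP12_8140 from -0.26 to 0.14 in B47 leaves.

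Replicate numbers showed no pairing of the samples: 84 same-numbered pairs of arrays from different groups correlated at -0.396 to 0.572 after group means were removed, 20 of them above 0.1, and 7 of 24 arrays were closest to their own number. Of 168 differently numbered pairs, 28 were above 0.1. Leaves and roots were harvested from the same plants. The 12 same-numbered pairs of leaf and root of 1 line and treatment, which may share a pot, correlated at -0.159 to 0.175, 2 of them above 0.1. With the replicate block, 2 of the 3 unigenes were called in each drought response, as without it, and no other call changed. Detection calls were not used here, so low values were not set against background.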
